A study of Mus musculus with 18 samples.

Results

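The genes described here are 9 genes best known from the projection neurons of the striatum: Drd1, Drd2, Adora2a, Gpr6, Cnr1, Ppp1r1b, Ptpn5, Arpp21 and Rasd2. They were measured in 2 brain regions that do not hold those neurons, the hippocampus and the cerebellum, of a mouse model of Huntington disease. A gene was taken where a probe set of the array was listed with its symbol alone, and where several were, the one with the highest mean (18 arrays) stood for the gene. By this rule 8 of the 9 genes were measured, among 19938 genes in all, each by 1 probe set. Adora2a, the adenosine receptor of striatal neurons of the indirect pathway, was not analysed here.

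The transgenic mice, N171-HD82Q (strain PrP-htt-N171-82Q), express a shortened, N-terminal piece of the human huntingtin protein that holds a long glutamine tract, under the mouse prion protein promoter and on a mixed DBA and C57BL/6J background. The controls were wild-type littermates, and the labels name no treatment. Hippocampus was sampled at 10 and at 20 weeks of age and cerebellum at 10 weeks, with 3 arrays per genotype in each of these 3 sets (18 arrays, 6 groups). Mice of 10 weeks were male and those of 20 weeks female, per the labels, so age and sex cannot be told apart. Each array carried RNA pooled from 3 to 4 animals, so every p-value measures the spread between pools.

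Striatal projection neurons are GABAergic neurons that receive dense dopamine input. Those of the direct pathway carry the D1 dopamine receptor, and those of the indirect pathway carry the D2 receptor, the adenosine receptor made from Adora2a and GPR6. Dopamine acts in both through cAMP and protein kinase A, with DARPP-32 as a main target. Loss of the transcripts of these genes in the striatum is a common feature of Huntington models. Several of them are also made by other neurons, and the hippocampus and cerebellum of wild-type mice had signal on their probe sets. The array values carry no detection call, so the share of a low value that is background is unknown. This touches Drd1, Drd2 and Gpr6 in particular, whose wild-type means were between 6.51 and 6.84 (log2) in the hippocampus. Their wild-type means in the cerebellum, 7.42, 7.64 and 7.37, were also below that of the median gene there (8.08).

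The stretch of 250 bases before the transcription start is shown for the 4 genes that passed the test in at least 1 set. The sequences are from RefSeq on the GRCm38.p6 build, which listed such windows for 7 of the 9 genes, and where a gene had several the most upstream one was taken. Windows were searched on both strands for the GC box (GGGCGG), the cAMP response element (TGACGTCA) and its shorter form (TGACG), the E-box CACGTG and the EGR site (GCGTGGGCG). The full cAMP response element holds the shorter form on both strands, and an EGR site followed by G holds a GC box. Capitals mark every match found. The windows lie at chr8:75213694-75213943 on the plus strand for Rasd2, chr13:54055659-54055908 on the minus strand for Drd1, chr9:49340153-49340402 on the plus strand for Drd2, and chr4:33924014-33924263 on the plus strand for Cnr1, and each is written 5′ to 3′ on its gene's strand.
Rasd2: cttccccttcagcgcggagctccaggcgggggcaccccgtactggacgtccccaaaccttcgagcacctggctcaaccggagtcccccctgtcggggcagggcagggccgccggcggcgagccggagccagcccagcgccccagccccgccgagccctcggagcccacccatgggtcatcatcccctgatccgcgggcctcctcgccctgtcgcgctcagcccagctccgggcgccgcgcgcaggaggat
Drd1: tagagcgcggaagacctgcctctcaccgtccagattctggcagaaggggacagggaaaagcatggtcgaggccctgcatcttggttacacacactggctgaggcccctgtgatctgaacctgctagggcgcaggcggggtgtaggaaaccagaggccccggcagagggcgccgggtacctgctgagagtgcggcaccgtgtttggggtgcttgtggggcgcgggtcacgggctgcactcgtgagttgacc
Drd2: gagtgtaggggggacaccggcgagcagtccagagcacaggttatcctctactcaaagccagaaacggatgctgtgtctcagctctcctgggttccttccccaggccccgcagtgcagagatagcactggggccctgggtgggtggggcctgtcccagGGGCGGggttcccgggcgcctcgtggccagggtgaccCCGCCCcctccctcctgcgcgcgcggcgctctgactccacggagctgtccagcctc
Cnr1: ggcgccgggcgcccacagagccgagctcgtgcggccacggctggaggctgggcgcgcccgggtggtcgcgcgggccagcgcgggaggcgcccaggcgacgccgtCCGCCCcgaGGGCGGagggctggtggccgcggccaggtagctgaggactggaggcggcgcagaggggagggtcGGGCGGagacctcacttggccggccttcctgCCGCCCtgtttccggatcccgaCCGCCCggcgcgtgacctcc

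The Cnr1 window held 5 GC boxes and the Drd2 window held 2. A GC box was present in 32.7% of all 32851 promoter windows of this length. The windows of Rasd2 and Drd1 held none of the motifs searched. The Gpr6 window, not shown, held 1 full cAMP response element, which 1.55% of all windows had. All 4 windows shown were rich in G and C, from 64.0% in Drd1 to 79.2% in Cnr1, against a median of 52.4% over all windows.

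Each gene's genotype difference is the mean log2 value of the 3 transgenic arrays minus that of the 3 wild-type arrays of the same tissue and age. A gene was called where the limma test gave a Benjamini-Hochberg adjusted p below 0.05 over all 19938 genes, and "rose" and "fell" are used for called genes only. The 3 sets were taken as separately normalised, so levels are compared only within a set. In the hippocampus 1 of the 8 genes was called lower at 10 weeks, where 0.757% of all genes were. At 20 weeks 1 of the 8 genes was called lower, where 3% of all genes were. In the cerebellum 4 of the 8 genes were called lower, where 3.59% of all genes were. No gene of the 8 was called higher in any set, where 0.1%, 2.61% and 2.58% of all genes were, from the 10-week to the 20-week hippocampus to the cerebellum. The differences were below 0 for 6, 7 and 8 of the 8 genes in the same order of sets, where 47.1%, 51.2% and 63.1% of all genes were. The median of the 8 differences was -0.12 in the hippocampus at 10 weeks, -0.21 at 20 weeks and -0.32 in the cerebellum. Over all genes the medians were 0.01, 0.00 and -0.05.

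**Figure D1:**
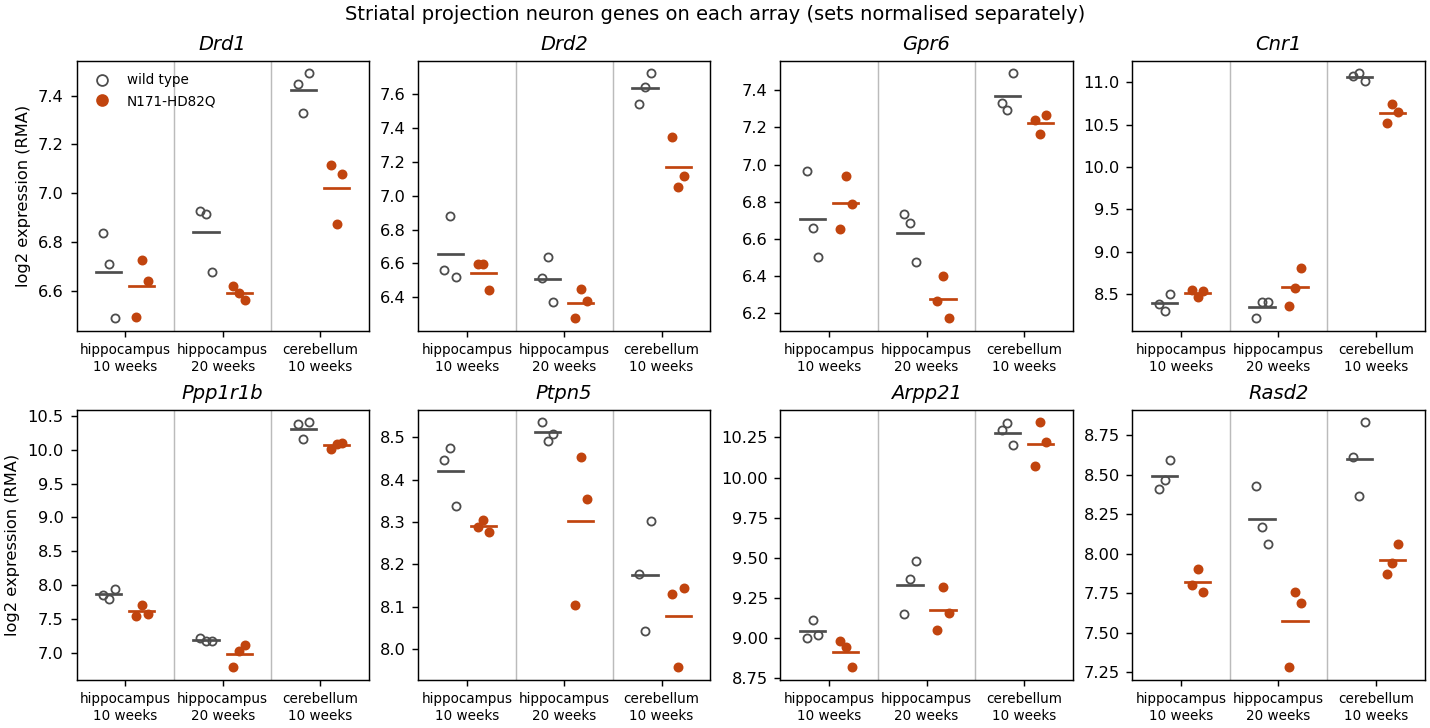
Deposited log2 expression (RMA, vertical axes with their own ranges) of the 8 genes on each array, by tissue and age; open circles are wild-type arrays, filled circles N171-HD82Q arrays, and bars group means of 3 arrays. Rasd2 shows transgenic arrays below all wild-type arrays in each set, while Drd1, Drd2 and Cnr1 do so with a called difference in the cerebellum.

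Rasd2 encodes Rhes, a small GTPase enriched in the striatum that binds mutant huntingtin. It was the gene of the 8 that fell in all 3 sets, and by nearly the same amount in each. At 10 weeks the wild-type hippocampal arrays read 8.41, 8.47 and 8.59 and the transgenic arrays 7.80, 7.91 and 7.76. At 20 weeks the wild-type arrays read 8.43, 8.17 and 8.06 and the transgenic arrays 7.28, 7.76 and 7.69. In the cerebellum the wild-type arrays read 8.62, 8.36 and 8.83 and the transgenic arrays 7.87, 7.94 and 8.06. Every transgenic array was below every wild-type array of its set, with a gap between the groups of at least 0.30. The differences were -0.67 (SE 0.13, adjusted p = 0.0093) in the hippocampus at 10 weeks, -0.65 (SE 0.13, adjusted p = 0.0063) at 20 weeks and -0.65 (SE 0.13, adjusted p = 0.0030) in the cerebellum. On the linear scale these are levels 37.2%, 36.1% and 36.1% below wild type.

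The lowest Rasd2 value of the 20-week hippocampus was on transgenic array 1, which also correlated least with the other arrays of its group (mean r 0.986, against 0.992 to 0.998 on the other arrays). Without that array the call held, with an adjusted p of 0.0051. The call was lost at 20 weeks without wild-type array 1 (adjusted p = 0.056), and at 10 weeks without wild-type array 3 (adjusted p = 0.063) or transgenic array 3 (adjusted p = 0.070). With the spread taken from the 20-week arrays alone it was not called there (adjusted p = 0.199), nor was any gene by limma, with 2835 genes at an unadjusted p below 0.05. In the cerebellum it held without any 1 array, with adjusted p-values up to 0.027. Across the whole array, 36 genes (0.181%) were called lower in all 3 sets. Chosen after the values were seen, 4 (0.0201% of all genes) had a difference below -0.6 in every set: Plk5, Car4, Penk and Rasd2. Penk, which encodes the enkephalin precursor, is a striatal projection neuron gene too.

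**Figure D2:**
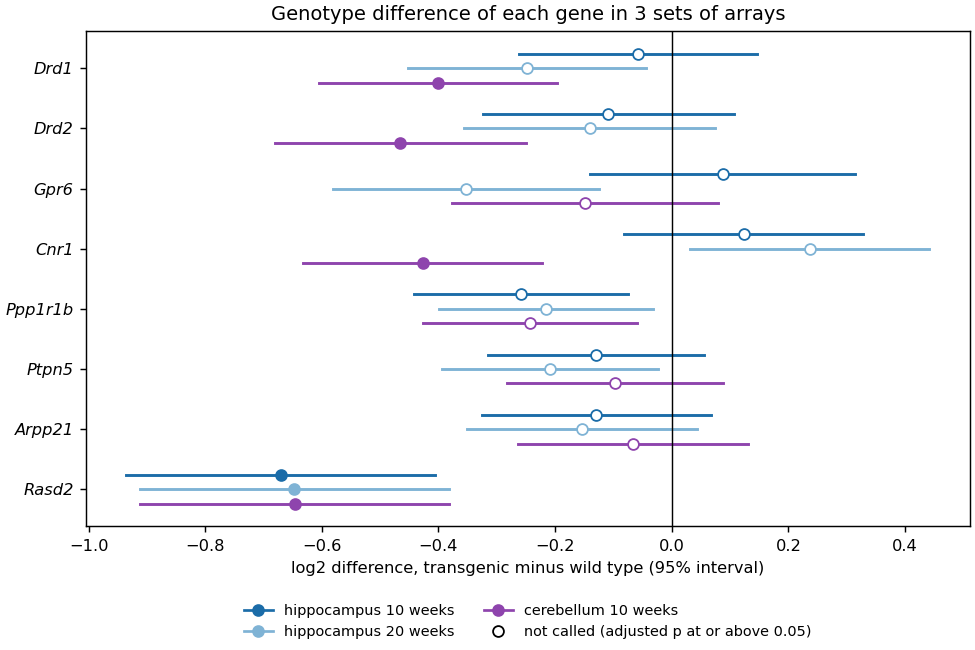
Transgenic minus wild-type log2 difference of each gene (points) with its 95% interval (lines) in the 3 sets of arrays; filled points are called at an adjusted p below 0.05. Rasd2 lies near -0.65 in each set, and the intervals of Cnr1 lie on opposite sides of 0 in the 20-week hippocampus and the cerebellum.

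The 2 dopamine receptors fell in the cerebellum and were not called in the hippocampus. Drd1 encodes the D1 receptor, which raises cAMP. Its cerebellar values were 7.45, 7.33 and 7.49 in wild-type arrays and 7.12, 6.87 and 7.08 in transgenic arrays. The groups did not overlap, and Drd1 fell by 0.40 on the log2 scale (SE 0.10, adjusted p = 0.016), a level 24.3% below wild type. Hippocampal Drd1 at 10 weeks read 6.84, 6.71 and 6.49 in wild-type arrays and 6.49, 6.72 and 6.64 in transgenic arrays. These groups overlapped, and the 95% interval of the difference ran from -0.26 to 0.15. Its 20-week values were 6.93, 6.91 and 6.68 against 6.62, 6.59 and 6.56. There the groups did not overlap, and the difference of -0.25 was not called (adjusted p = 0.131).

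Drd2 encodes the D2 receptor, which lowers cAMP. Its cerebellar values were 7.54, 7.64 and 7.72 in wild-type arrays and 7.35, 7.05 and 7.12 in transgenic arrays. The groups did not overlap, and Drd2 fell by 0.47 on the log2 scale (SE 0.10, adjusted p = 0.0076), a level 27.6% below wild type. Hippocampal Drd2 at 10 weeks read 6.56, 6.88 and 6.52 in wild-type arrays and 6.59, 6.60 and 6.44 in transgenic arrays. Its 20-week values were 6.51, 6.64 and 6.37 against 6.27, 6.45 and 6.38. Both pairs of groups overlapped, with 95% intervals of the difference from -0.32 to 0.11 and from -0.36 to 0.07.

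The cerebellar call of Drd1 was lost without wild-type array 1 (adjusted p = 0.066), wild-type array 3 (adjusted p = 0.081) or transgenic array 2 (adjusted p = 0.113). That of Drd2 was lost without transgenic array 2 (adjusted p = 0.058). The 4984 genes with wild-type cerebellar means between 6.57 and 8.08, which include Drd1, Drd2 and Gpr6, had a median difference of -0.11, and 2.69% of them were called lower. These means lie below that of the median gene of the set, and the share of such values that is background is unknown. When all arrays were forced to 1 distribution the Drd1 difference was -0.26 and was not called (adjusted p = 0.094).

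Cnr1 encodes the CB1 cannabinoid receptor, which sits on axon terminals and damps transmitter release, in the hippocampus mostly on interneuron terminals and in the cerebellum also on granule cell axons. In the cerebellum the wild-type arrays read 11.08, 11.11 and 11.02 and the transgenic arrays 10.52, 10.75 and 10.65. The groups did not overlap, and Cnr1 fell by 0.43 on the log2 scale (SE 0.10, adjusted p = 0.010), a level 25.6% below wild type. The hippocampal differences had the other sign. At 10 weeks the values were 8.38, 8.30 and 8.50 in wild-type arrays and 8.55, 8.47 and 8.53 in transgenic arrays. At 20 weeks they were 8.21, 8.41 and 8.41 against 8.36, 8.57 and 8.81. Both pairs overlapped, and neither the difference of 0.12 (adjusted p = 1.00) nor that of 0.24 (adjusted p = 0.149) was called. The cerebellar call was lost without transgenic array 1 (adjusted p = 0.066). Without transgenic array 1 of the 20-week hippocampus, the difference there was 0.35 and was called higher (adjusted p = 0.0082), as 6445 of all 19938 genes were called. With array weights in the limma fit Cnr1 was called higher in the hippocampus at 10 weeks (adjusted p = 0.0002) and at 20 weeks (adjusted p = 0.0093). That fit called 8449 and 8689 of all genes in these sets. At 10 weeks it gave 1 wild-type array a weight of 9.37 and 1 transgenic array a weight of 8.92.

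Gpr6 encodes an orphan receptor that raises cAMP without an added ligand and marks striatal neurons of the indirect pathway. It was not called in any set. Hippocampal Gpr6 at 10 weeks read 6.96, 6.66 and 6.50 in wild-type arrays and 6.65, 6.94 and 6.79 in transgenic arrays, and the groups overlapped. At 20 weeks it read 6.74, 6.69 and 6.48 against 6.27, 6.40 and 6.17, with no overlap and a difference of -0.35 (SE 0.11, adjusted p = 0.062). In the cerebellum it read 7.33, 7.29 and 7.49 against 7.24, 7.16 and 7.26, with no overlap and a difference of -0.15 (adjusted p = 0.453). The 20-week difference was near the threshold: it was called without wild-type array 3 (adjusted p = 0.039) or transgenic array 1 (adjusted p = 0.035), and with each array centred on its median (adjusted p = 0.044). It was also called lower with quantile scaling within each set, without dim genes and with array weights, so under 4 of the 9 alternatives that kept all arrays. In this set 6445 of all 19938 genes were called without transgenic array 1 and 8689 with array weights.

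None of the 3 genes of intracellular signalling was called in any set. Ppp1r1b encodes DARPP-32, which inhibits protein phosphatase 1 once protein kinase A has phosphorylated it. Its values in the hippocampus at 10 weeks were 7.86, 7.80 and 7.95 in wild-type arrays and 7.54, 7.71 and 7.58 in transgenic arrays. At 20 weeks they were 7.22, 7.18 and 7.17 against 6.78, 7.03 and 7.11. In the cerebellum they were 10.37, 10.16 and 10.40 against 10.02, 10.08 and 10.10. The groups did not overlap in any of the 3 sets, which was so in the lower direction for 1.45% of all genes. The differences were -0.26, -0.22 and -0.24, with adjusted p-values of 0.298, 0.143 and 0.119. With quantile scaling, within each set or over all arrays, Ppp1r1b was called lower in all 3 sets, with adjusted p-values from 0.012 to 0.038. Without wild-type array 2 of the cerebellum it was called there as well (adjusted p = 0.049).

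Ptpn5 encodes STEP, a tyrosine phosphatase that acts on ERK kinases, Fyn and NMDA receptor subunits. Hippocampal Ptpn5 at 10 weeks read 8.45, 8.47 and 8.34 in wild-type arrays and 8.29, 8.31 and 8.28 in transgenic arrays. Its 20-week values were 8.54, 8.49 and 8.51 against 8.10, 8.45 and 8.35. The hippocampal groups did not overlap, and the differences of -0.13 (adjusted p = 1.00) and -0.21 (adjusted p = 0.161) were not called. The 20-week difference was called under quantile scaling within each set (-0.27, adjusted p = 0.025) and over all arrays (-0.26, adjusted p = 0.033). In the cerebellum it read 8.18, 8.04 and 8.30 against 8.13, 7.96 and 8.14, with overlap and a 95% interval of the difference from -0.28 to 0.09.

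Arpp21 encodes a phosphoprotein that, once phosphorylated through cAMP, binds calmodulin. In the hippocampus at 10 weeks it read 9.001, 9.11 and 9.02 in wild-type arrays and 8.98, 8.94 and 8.81 in transgenic arrays, and the groups lay 0.020 apart. At 20 weeks it read 9.15, 9.36 and 9.48 against 9.05, 9.32 and 9.15, and in the cerebellum 10.30, 10.34 and 10.20 against 10.07, 10.34 and 10.22. These groups overlapped. The differences were -0.13, -0.15 and -0.07, and their 95% intervals together ran from -0.35 to 0.13. Counted over the 8 genes, the transgenic group lay wholly below the wild-type group for 4 genes in the hippocampus at 10 weeks, 5 at 20 weeks and 6 in the cerebellum. Among all genes this was so for 7.24%, 12% and 21.9%.

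**Figure D3:**
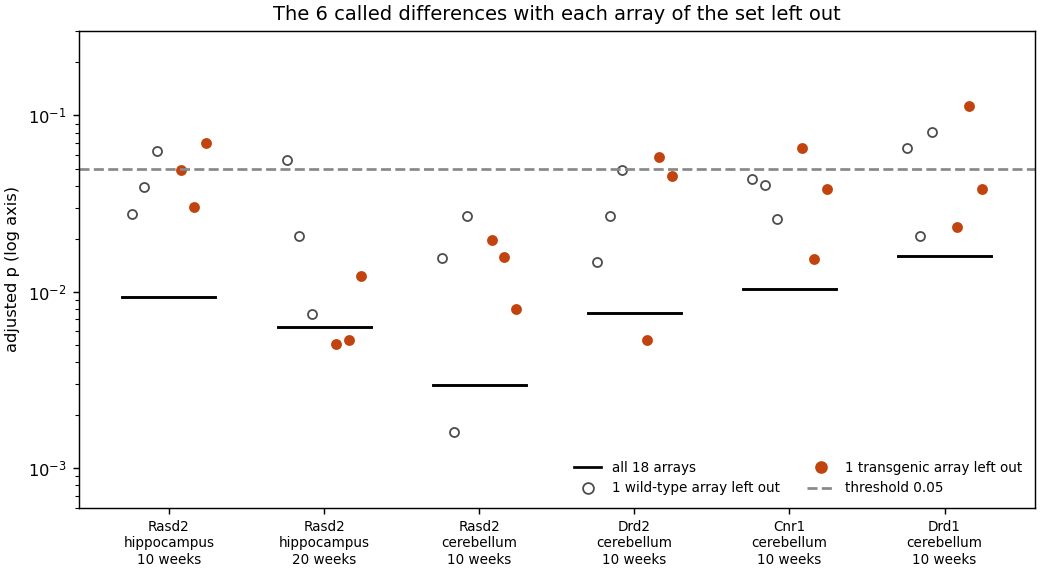
Adjusted p (log axis) of the 6 called differences with all 18 arrays (bars) and with each array of the set left out in turn (open circles, a wild-type array; filled circles, a transgenic array); the dashed line is the threshold of 0.05. The cerebellar Rasd2 call stays below the line throughout, and the cerebellar Drd1 call crosses it for 3 of 6 arrays.

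Whether the genotype difference itself differed between sets was tested directly. Between the cerebellum and the hippocampus at 10 weeks none of the 8 genes was called by the limma test, where 1.54% of all genes were, and 3 of the 8 had an unadjusted p below 0.05, where 10.1% of all genes did. Cnr1 came nearest: its cerebellar difference lay 0.55 below its hippocampal one on the log2 scale (SE 0.14, adjusted p = 0.052). This difference was called under 8 of the 9 alternatives that kept all arrays, the exception being the mean of all probe sets of a gene (adjusted p = 0.051). With each of the 12 arrays of these sets left out in turn it was not called, at adjusted p-values from 0.051 to 0.149. The differences between the effects were -0.34 for Drd1 (adjusted p = 0.353) and -0.36 for Drd2 (adjusted p = 0.360). A difference between cerebellum and hippocampus was thus not shown for either dopamine receptor. For Rasd2 the cerebellar and hippocampal effects differed by 0.02, with a 95% interval from -0.35 to 0.40. Between 20 and 10 weeks in the hippocampus none of the 8 genes was called. With all arrays weighted equally limma called no other gene either, while 949 genes (4.76%) had an unadjusted p below 0.05. With array weights 3932 of all genes were called, among them Gpr6 of the 8. Without transgenic array 1 of the 20-week set 126 genes were called, none of them among the 8. In the fit as reported, Gpr6 was the 1 gene of the 8 with an unadjusted p below 0.05 (-0.44, unadjusted p = 0.010, adjusted p = 0.942). For Rasd2 the 20-week and 10-week effects differed by 0.02, with a 95% interval from -0.35 to 0.40.

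Other striatal projection neuron genes showed no common direction. Of 20 listed, 19 were measured. For this list and those that follow, 0.757%, 3% and 3.59% of all genes were called lower in the order of the sets. Called higher were 0.1%, 2.61% and 2.58%. In the hippocampus at 10 weeks 2 of the 19 fell, Penk by 1.28 (SE 0.12, adjusted p = 5.8e-05) and Strip2, a scaffold protein gene, by 0.98 on the log2 scale. At 20 weeks 5 of the 19 fell and 2 rose. Penk fell by 1.28 again, Strip2 fell by 0.68 and Syndig1l, a synapse differentiation gene, fell by 0.48. The other called genes were the sodium channel subunit gene Scn4b and the transcription factor gene Bcl11b, which fell, and the retinoid receptor genes Rarb and Rxrg, which rose. In the cerebellum 3 of the 19 fell and 4 rose. Penk fell by 0.67 there and so did Scn4b and Foxp2, by less, while Pde1b, a calmodulin-dependent phosphodiesterase gene, rose by 0.62. Rgs9, which speeds the shut-off of G proteins, rose by 0.53, and so rose Syndig1l, by 0.51, and Adcy5, the main striatal adenylyl cyclase gene, by 0.43. The cerebellar call of Foxp2 was lost for 5 of 6 arrays left out (adjusted p up to 0.134) and under median centring (adjusted p = 0.064), and that of Scn4b for 4 of 6 (up to 0.088). The median difference of the 19 genes was -0.05, -0.05 and -0.16 in the order of the sets, against 0.01, 0.00 and -0.05 over all genes.

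**Figure D4:**
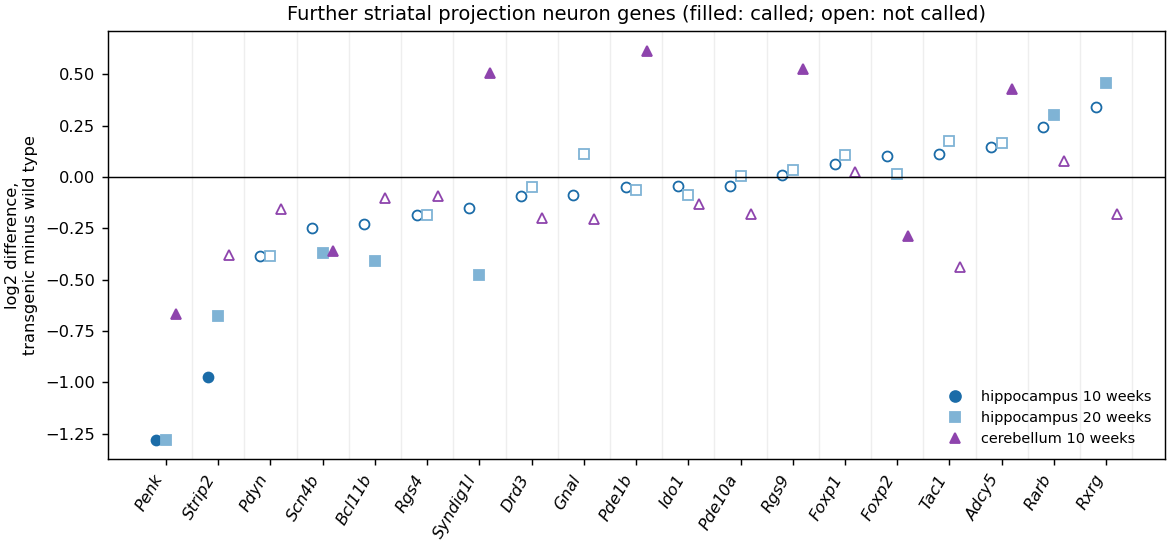
Transgenic minus wild-type log2 difference (vertical axis) of 19 further striatal projection neuron genes in the 3 sets; filled symbols are called at an adjusted p below 0.05 and open symbols are not. Penk is the gene lower with a call in all 3 sets, and Syndig1l was called lower in the 20-week hippocampus and higher in the cerebellum.

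Penk read 9.36, 9.20 and 9.34 in wild-type and 8.07, 8.04 and 7.94 in transgenic hippocampus at 10 weeks, a gap wider than either group's range. Its calls held without any 1 array in each set, as did those of Strip2 at 10 weeks and of Pde1b, Rgs9, Adcy5 and Syndig1l in the cerebellum. At 20 weeks the number of the 19 genes called was 1 without wild-type array 1 and 10 without transgenic array 1. In the same set the number of all genes called was 259 without wild-type array 1 and 6445 without transgenic array 1, against 1119 with all arrays.

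Among the other dopamine and adenosine receptors and the relatives of Gpr6, 5 of 8 listed genes were measured. Drd5 encodes the D5 receptor, a D1-class receptor that the hippocampus is known for. In the hippocampus at 10 weeks it read 7.82, 7.70 and 8.25 in wild-type arrays and 7.05, 6.89 and 7.11 in transgenic arrays, and it fell by 0.91 on the log2 scale (SE 0.12, adjusted p = 0.00066). At 20 weeks it read 7.78, 7.70 and 7.65 against 6.80, 7.19 and 7.07 and fell by 0.69 (SE 0.12, adjusted p = 0.0029). Both hippocampal calls of Drd5 held without any 1 array. In the cerebellum its difference was -0.31 (adjusted p = 0.154). The D1-class receptor called lower in the hippocampus was thus Drd5, and the D1-class receptor called lower in the cerebellum was Drd1, although the tests between the tissues called neither (Drd5: effects 0.59 apart, adjusted p = 0.113). Drd4 and Drd3 were not called in any set. Gpr3, a close relative of Gpr6, fell by 0.33 at 20 weeks, and Gpr12, another, fell by 0.38 in the cerebellum. Each of these calls was lost without some of the arrays, up to an adjusted p of 0.20 for Gpr3 and 0.077 for Gpr12.

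The genes that make, store and clear dopamine gave 7 of 8 measured. The limma test called none in the hippocampus at 10 weeks. There 0 of the 7 had an unadjusted p below 0.05, against 1305 of all 19938 genes. At 20 weeks Th, the rate-limiting enzyme of catecholamine synthesis, fell by 0.37 on the log2 scale, and Maoa, which breaks monoamines down, rose by 0.49. In the cerebellum Dbh, which turns dopamine into noradrenaline, fell by 0.69, the vesicular transporter gene Slc18a2 fell by 0.64 and Th fell by 0.39. The wild-type mean of Dbh was low, 6.78 in the cerebellum and 5.40 in the 10-week hippocampus. The share of these values that is background is unknown. The calls of Dbh and Slc18a2 held without any 1 array. Those of Th and Maoa did not, with adjusted p-values up to 0.15 for Th and 0.21 for Maoa.

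Downstream of the receptors, 27 of 29 genes of cAMP, protein kinase A and DARPP-32 signalling were measured. Of these 2 fell in the hippocampus at 10 weeks, 3 fell and 1 rose at 20 weeks, and 4 fell in the cerebellum. Among all genes 0.757% fell at 10 weeks, 3% fell and 2.61% rose at 20 weeks, and 3.59% fell in the cerebellum. Adcy1, the calmodulin-stimulated adenylyl cyclase gene, fell in all 3 sets, by 0.72, 0.77 and 0.56 on the log2 scale, and each call held without any 1 array. The calcineurin subunit gene Ppp3ca fell by 0.29 at 10 weeks and by 0.36 at 20 weeks, where Adcy9 also fell, by 0.59, and the inhibitory G protein gene Gnai2 rose by 0.41. The 10-week call of Ppp3ca was lost for 5 of 6 arrays left out, up to an adjusted p of 0.22. In the cerebellum the phosphodiesterase gene Pde2a fell by 0.67, Adcy8 by 0.47 and the inhibitory G protein gene Gnai1 fell as well. Without transgenic array 3 Adcy8 was not called (adjusted p = 0.053). The median of the 27 differences was 0.00 at 10 weeks, 0.09 at 20 weeks and -0.01 in the cerebellum. The remaining genes, among them Prkacb, which encodes a catalytic subunit of protein kinase A, were not called in any set.

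All 11 listed genes of the endocannabinoid system were measured. The limma test called none in the hippocampus at 10 weeks. There 5 had an unadjusted p below 0.05, against 1305 of all 19938 genes. At 20 weeks 3 fell: Dagla, which makes the ligand 2-arachidonoylglycerol, by 0.49, Faah, which breaks anandamide down, by 0.34, and Napepld, which makes anandamide, by 0.34 on the log2 scale. In the cerebellum, where Cnr1 itself fell, 2 were called: Napepld fell by 0.31 and Abhd6, a hydrolase of 2-arachidonoylglycerol, fell by 0.37. Without wild-type array 1 of the 20-week hippocampus none of the 3 was called. In the cerebellum the call of Abhd6 was lost whichever array was left out, up to an adjusted p of 0.12, and that of Napepld for 5 of 6 arrays, up to 0.14.

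Of 9 listed substrates and relatives of Ptpn5, 7 were measured. Ptk2b, which encodes the tyrosine kinase Pyk2, fell by 0.36 at 10 weeks and by 0.33 at 20 weeks in the hippocampus. At 20 weeks Ptpn7, a related phosphatase gene, fell by 0.37 and Fyn rose by 0.32. In the cerebellum limma called none, while 3 had an unadjusted p below 0.05, against 4045 of all 19938 genes. The 10-week call of Ptk2b was lost whichever array was left out, up to an adjusted p of 0.20. At 20 weeks the number called ran from 0, for example without wild-type array 1, to 5 without transgenic array 1.

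All 9 genes listed beside Rasd2 and Arpp21 were measured. Rasd1, the closest relative of Rasd2 and a glucocorticoid-induced small GTPase gene, read 7.66, 7.74 and 7.89 in wild-type and 6.9955, 7.17 and 6.86 in transgenic hippocampus at 10 weeks. It fell by 0.76 on the log2 scale (SE 0.14, adjusted p = 0.0071) there and by 1.07 (SE 0.14, adjusted p = 0.00024) at 20 weeks. Rasl10a, another small GTPase gene, fell by 0.91 and by 0.81. In the cerebellum, where Rasd2 fell, the differences of Rasd1 (-0.31, adjusted p = 0.219) and of Rasl10a (-0.09) were not called. R3hdm1, a relative of Arpp21, fell by 0.33 in the hippocampus at 10 weeks, and Ensa, a further gene of the list, rose by 0.26 in the cerebellum. The 10-week call of Rasd1 was lost without wild-type array 3 (adjusted p = 0.054) or transgenic array 3 (adjusted p = 0.070), the same arrays as for Rasd2. The calls of R3hdm1 and Ensa were each lost for 5 of 6 arrays, up to adjusted p-values of 0.18 and 0.13.

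The genes whose pattern over the 18 arrays was nearest to each called gene were found by the root-mean-square difference, with every gene centred on its mean in each set. For Rasd2 these were Adcy1 (0.11), Chgb, which encodes a secretory granule protein (0.11), and Cracdl (0.12), where the median over all genes was 0.36. All 3 were called lower in every set. For Drd1 they were Foxb2 (0.043), Sema3f (0.055) and Upk1a (0.058), against a median of 0.19. For Drd2 they were Tiam1 (0.072), a marker of cerebellar granule neurons here, Ngef (0.079) and Msantd1 (0.081), against 0.20. For Cnr1 they were Usp3 (0.060), Ccne2 (0.060) and Ccndbp1 (0.068), against 0.20, and their differences were above 0 in both hippocampal sets and called lower in the cerebellum, like those of Cnr1. These are descriptions of the same 18 arrays and carry no test.

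**Figure D5:**
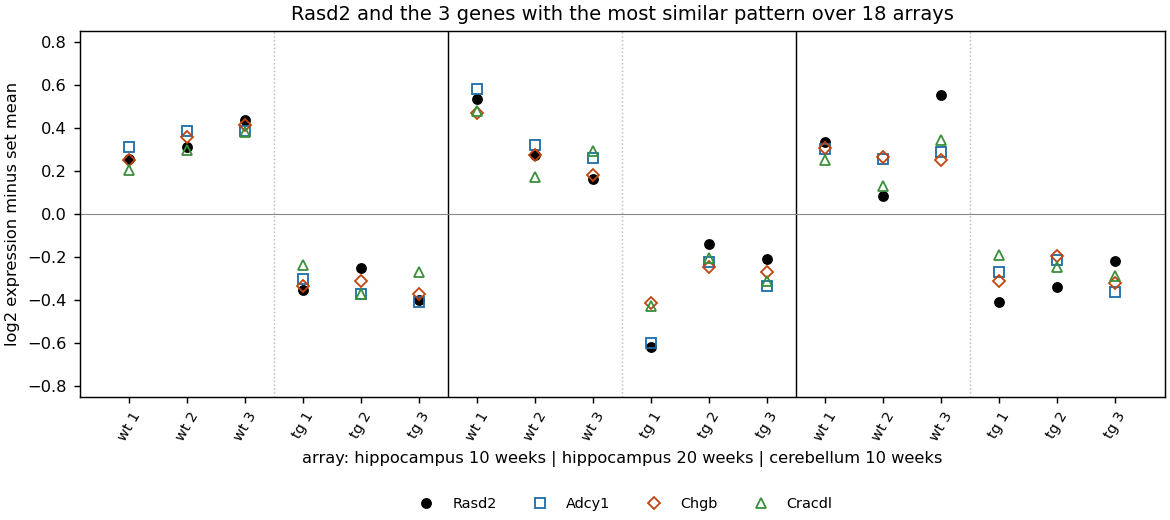
Log2 expression of Rasd2 and of the 3 genes nearest to it in pattern (Adcy1, Chgb and Cracdl), each minus its mean in the set (vertical axis), on each of the 18 arrays (horizontal axis; wt wild type, tg transgenic; solid lines part the sets). In each set all 4 genes lie above 0 on the wild-type arrays and below 0 on the transgenic arrays.

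Several marker lists and arrays moved with the genotype, and their part in the results above was not tested. Fewer cells of a type and less RNA per cell cannot be told apart in such samples. The promoter of the transgene is that of Prnp, whose probe set rose by 0.71, 0.73 and 1.07 in the order of the sets, while Htt, measured by a probe set for the mouse gene, was not called. The granule neuron marker Gabra6 had a wild-type mean of 13.03 in the cerebellar set and 4.42 in the 10-week hippocampal set, which were normalised separately. Of 12 markers of dentate granule neurons, 10 were called lower in the hippocampus at each age. Their mean level was 8.16 to 8.35 in wild-type and 7.59 to 7.64 in transgenic arrays at 10 weeks, and 8.10 to 8.23 against 7.28 to 7.64 at 20 weeks. Of 12 markers of CA pyramidal neurons, 4 and 6 were called lower, and all 12 differences were below 0 at each age. Their mean level was 8.12 to 8.28 in wild-type and 7.65 to 7.77 in transgenic arrays at 10 weeks, and 8.02 to 8.20 against 7.32 to 7.72 at 20 weeks. The mean level of 7 pan-neuronal markers overlapped in the hippocampus at 10 weeks (10.46 to 10.54 against 10.39 to 10.50) and at 20 weeks (10.67 to 10.74 against 10.67 to 10.72). Of these markers 1 was called there, Stmn2, higher at 20 weeks. In the cerebellum 3 of 11 granule neuron markers were called lower (mean level 12.27 to 12.35 against 12.05 to 12.10), 0 of 8 Purkinje neuron markers by limma, 4 of them with an unadjusted p below 0.05 (12.20 to 12.23 against 12.07 to 12.08) and 2 of 7 pan-neuronal markers (11.72 to 11.78 against 11.49 to 11.57). Of all 19938 genes 4045 had an unadjusted p below 0.05 in the cerebellum. The mean level of 11 markers of the striatum itself, out of 12 listed, overlapped between the genotypes in the hippocampus at 10 weeks (6.50 to 6.61 against 6.51 to 6.60) and in the cerebellum (7.45 to 7.61 against 7.47 to 7.57). At 20 weeks it was 6.32 to 6.39 in wild-type and 6.27 to 6.31 in transgenic arrays, without overlap. Of 9 markers of the thalamus and habenula, which adjoin the hippocampus, 1 was called lower in each hippocampal set, Prkcd, and 2 in the cerebellum, Prkcd and Ntng1. Their mean level did not overlap between the genotypes in any set: it was 7.36 to 7.39 in wild-type and 7.21 to 7.26 in transgenic arrays at 10 weeks, 7.08 to 7.10 against a transgenic mean of 6.95 at 20 weeks, and 9.12 to 9.15 against 8.89 to 8.92 in the cerebellum. The lists share genes: Calb2 and Zic1 were also counted as cerebellar granule neuron markers, and Six3 as a striatal one. Of 12 markers of GABAergic interneurons, 2 were called lower in the cerebellum, Sst and Gad2, where the mean level was 9.23 to 9.42 against 9.07 to 9.17. In the hippocampus limma called 0 of the 12, with 1 and 5 at an unadjusted p below 0.05, against 1305 and 4741 of all 19938 genes. The interneuron level there was 8.65 to 8.74 against 8.59 to 8.63 at 10 weeks, without overlap, and 8.63 to 8.66 against 8.24 to 8.63 at 20 weeks, with overlap. Of 7 oligodendrocyte markers, 3 were called higher in the 20-week hippocampus, Cnp, Mog and Opalin, with mean levels of 9.30 to 9.42 in wild-type and 9.39 to 9.73 in transgenic arrays. Of 11 choroid plexus markers 2 were called higher in the cerebellum, with mean levels of 7.40 to 8.09 in wild-type and 8.03 to 8.46 in transgenic arrays. In the 10-week hippocampus their mean level was 6.22, 6.65 and 7.30 on wild-type arrays 1 to 3, against 6.48 to 6.77 on transgenic arrays. Of the striatal markers 0, 2 and 1 were called lower and 0, 1 and 3 higher in the order of the sets.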

How the data were processed

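RNA of hippocampus and cerebellum was hybridised to Affymetrix MoGene 1.0 ST arrays. The values deposited by the authors are log2 expression for each probe set from RMA in the oligo package, per the submitters' processing notes, and no versions are given there. RMA removes background, gives all arrays of a run the same distribution and combines the probes of a probe set. Within a set of 6 arrays 76 to 150 exact values recurred between arrays, and between sets at most 2, so the sets were taken as separate runs. Genes were named by the platform's annotation, updated through RefSeq (GRCm38.p6): of 35556 probe sets 21789 had 1 symbol (21698 matched), 1621 several and 12146 none. No filter on low values was applied. The table had 1 missing cell, outside the genes tested.

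The 6 group means were fitted with limma 3.58.1 in R 4.3.3 (12 residual degrees of freedom, eBayes without trend), and tests are two-sided. The code was tested on simulated data. The number of arrays limits the precision. The 9 genes, the gene lists and the tests were chosen with earlier results of these data known. Named besides the 9 genes were Prnp and Htt, up to 3 called genes of smallest p per list and set, and the 3 genes nearest in pattern to each called gene. Further genes of the lists, markers and genes called in all sets were named after their values were seen. Alternatives were the replicate number as a block, other scalings, a filter on dim genes, the mean of all probe sets of a gene, a variance trend, array weights, the spread of a set's own arrays and each array left out.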

Additional observations from a re-analysis of the deposited data

Results flagged for a closer look

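In groups of 3 arrays no test for a stray sample applies. The limma test of the difference between the cerebellar and hippocampal genotype effects at 10 weeks called 1.54% of all genes. In the marker lists it called, among others, 6 of 12 dentate granule neuron genes, with the cerebellar effect above the hippocampal one. In the other gene lists it called 5 genes. The cerebellar effect lay below the hippocampal one for Dbh (-0.64, SE 0.15, adjusted p = 0.039) and for the adenylyl cyclase gene Adcy8 (-0.57, SE 0.14, adjusted p = 0.048). It lay above the hippocampal one for Rasl10a (0.82, SE 0.16, adjusted p = 0.0099), Pde1b (0.66, SE 0.11, adjusted p = 0.0019) and Syndig1l (0.66, SE 0.15, adjusted p = 0.026). Within the sets, Rasl10a was called lower in the hippocampus at both ages, Dbh and Adcy8 were called lower in the cerebellum, and Pde1b and Syndig1l were called higher there. None of the 8 striatal projection neuron genes was among them.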

How the results depend on the processing

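Over the 8 genes and 3 sets, called differences stayed called in 80 of 90 recomputed values and lost significance in 10, and none changed sign. Differences not called stayed so in 241 of 270 values, became called in 24 and changed sign in 5. The cause was not tested unless fewer arrays entered the fit.

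The number of the 8 genes called in the 10-week hippocampus was 1, but 2 with quantile scaling within sets, 2 with quantile scaling over all arrays, 6 with array weights and 0 to 1 with an array left out. For the 20-week hippocampus it was 1, but 2 with median centring, 4 and 3 with these quantile scalings, 2 without dim genes, 4 with array weights, 0 with the spread of its own arrays and 0 to 3 with an array left out. For the cerebellum it was 4, but 5 with quantile scaling within sets and with array weights, each adding Ppp1r1b, and 2 to 5 with an array left out; with quantile scaling over all arrays Ppp1r1b was called in place of Drd1. The test between tissues called 0, also with any array left out, but 1, Cnr1, under the replicate block, median centring, both quantile scalings, without dim genes, with a variance trend and with the sets' own spread, and 2, Cnr1 and Drd1, with array weights. The test between ages called 0, and 1, Gpr6, with array weights, under which it called 3932 of all genes. Within both hippocampal sets the genes called with array weights were lower, except Cnr1, which was called higher at each age.

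Of all genes, the 10-week hippocampus had 268 called with median centring, 429 and 516 with the quantile scalings, 8449 with array weights and 82 to 117 with an array left out, against 151 lower and 20 higher in the fit as reported. At 20 weeks 1119 became 2032 and 1790 with the quantile scalings, 8689 with array weights, 259 to 6445 with an array left out and 0 by limma with the set's own spread (2835 at an unadjusted p below 0.05). In the cerebellum 1230 became 1940 with quantile scaling within sets, 5137 with array weights, 2692 with the set's own spread and 736 to 1106 with an array left out. There the split of 514 higher and 716 lower became 991 and 949 with quantile scaling within sets. Array weights ran from 0.080 to 9.37.

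Signs that changed, none of them called: the difference of effects between ages was -0.011 for Ppp1r1b and -0.044 for Rasd2 with quantile scaling within sets, 0.018 for Drd2 with quantile scaling over all arrays, and 0.27 for Drd2, 0.17 for Arpp21 and 0.11 for Ptpn5 with array weights. The difference between tissues was -0.045 for Ppp1r1b with array weights. With an array left out, the 10-week hippocampal difference ran from -0.15 to 0.022 for Drd1, -0.18 to 0.0056 for Drd2 and -0.016 to 0.22 for Gpr6, and the cerebellar one from -0.13 to 0.0030 for Arpp21. The difference between ages ran from -0.15 to 0.035 for Drd2, -0.025 to 0.14 for Ppp1r1b, -0.068 to 0.17 for Rasd2, -0.12 to 0.049 for Arpp21 and -0.15 to 0.021 for Ptpn5, and that between tissues from -0.062 to 0.066 for Ppp1r1b, -0.096 to 0.14 for Rasd2, -0.0032 to 0.13 for Arpp21 and -0.034 to 0.096 for Ptpn5.

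The replicate numbers were not taken to pair the arrays, as the labels tie no numbers together. The correlation of same-numbered deviations ran from -0.56 to 0.45 in the 10-week hippocampus, 0.035 to 0.11 at 20 weeks and 0.11 to 0.28 in the cerebellum. That of differently numbered ones ran from -0.66 to 0.63, -0.10 to 0.014 and -0.24 to 0.079. At 20 weeks and in the cerebellum every same-numbered correlation was thus above every differently numbered one. Whether the numbers mark a shared batch was not tested. With the replicate block 130, 1221 and 1232 of all genes were called, and within sets the calls of the 8 genes were the same; between tissues Cnr1 was called.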
